A study of Homo sapiens with 12 samples.

Results

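The genes described here encode the polycomb repressive complex PRC2 and the enzymes that remove its mark. They are EZH2 and EZH1 (catalytic subunits), EED, SUZ12 and RBBP4 (core subunits), JARID2, MTF2 and PHF19 (accessory subunits) and the demethylases KDM6A and KDM6B. They were selected by symbol, with no threshold on a measured value, and all 10 were found among the 12451 entries of the counts table. All 10 were among the 11303 genes tested, which had an RPKM (reads per kilobase of exon, scaled to library size) of at least 1 in at least 3 libraries. MTF2 passed this filter through the vehicle libraries alone, so a higher level in vehicle was a condition for its being tested.

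mRNA was sequenced from MDA-MB-231-ERβ cells, a triple negative breast cancer line that stably carries full length estrogen receptor β (ERβ) under the control of doxycycline (dox). Cells were kept in charcoal-stripped serum with dox and received ethanol vehicle or 1 nM estradiol (E2) for 5 days, and 20 ng/ml tumor necrosis factor α (TNFα) was added to some of them for the last 3 h. Each of the 4 treatments (vehicle, E2, TNFα, and both agents, written E2+TNFα) has 3 of the 12 libraries. Dox is missing from the labels for E2+TNFα and is taken from the treatment protocol and the methods of the study. The replicates were separate dishes of the same line, so the tests measure the spread between dishes.

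PRC2 places methyl groups on H3K27, and the trimethylated form, H3K27me3, marks genes that are kept silent. EZH2 or EZH1 carries the methyltransferase domain, which is active only in complex with EED and SUZ12, and the accessory subunits direct the complex to CpG-rich chromatin. KDM6A (UTX) and KDM6B (JMJD3) remove the mark, and KDM6B is known as a gene that inflammatory signals induce through NFκB. In breast cancer EZH2 is best known as a proliferation-linked gene with high levels in triple negative tumors.

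Library totals ran from 7.65 M counted reads (M, mega) in E2 replicate 2 to 39.9 M, and vehicle libraries had 35.8 M or more. The 3 E2 libraries had the lowest totals (15.76, 7.65 and 11.85 M), so depth differed along with treatment in the comparisons with E2. On log2 CPM (counts scaled to library size, with TMM), 67.7% of the variance lay along a first principal component that set the 3 vehicle libraries against the other 9. The labels name no batch, so a batch of the vehicle libraries and the vehicle condition cannot be told apart. ESR2, which encodes ERβ, ranged from a mean of 254 CPM in TNFα to 471 in vehicle libraries. The E2 target GREB1 was at 3.43 CPM in vehicle and 51.6 in E2, and TNF was at 0.316 CPM in vehicle and 36.6 in TNFα libraries. Of the mesenchymal markers of the line, VIM, CD44, AXL and CAV1 were at 169 CPM or more in every group, whereas ZEB1 was at 23.2 CPM in vehicle and at 1.19 to 2.71 in the other groups. The epithelial marker CDH1 was at 3.14 CPM in vehicle, 41.0 in E2, 1.90 in TNFα, with 40.6 in E2+TNFα, and ERBB2 was at 93.8 to 108 CPM, so neither was absent. Group means of a further epithelial marker, EPCAM, were 8.34 to 12.7 CPM. The luminal keratins KRT8 and KRT18 were at 675 and 444 CPM in vehicle and higher in every other group, up to 3502 and 2079 in E2. SPARC, a further mesenchymal marker, was not among the entries used.

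In cells treated with TNFα, E2 lowered EZH2, EZH1, PHF19 and KDM6B and raised JARID2 and KDM6A, by between 1.27-fold and 1.89-fold. Of the 10 genes, 6 passed an adjusted p of at most 0.1 (Benjamini-Hochberg, edgeR's quasi-likelihood F test over all genes tested), 4 of them lower and 2 higher in E2+TNFα than in TNFα, where 45.3% of all genes passed, 24.4% higher and 21% lower. These 6 were also the genes whose groups did not overlap, as 46.7% of all genes did not. None reached an absolute log2 fold change of 1.5, the size threshold that 5.56% of all genes passed. In cells treated with E2, TNFα raised KDM6B, the 1 gene of the 10 to pass, where 6% of all genes passed, 2.65% higher and 3.34% lower, and 0.407% passed the size threshold, which no gene of the 10 did. The share of all genes depended on single libraries and was 1.27% without E2 replicate 1, 14.7% without E2 replicate 3, and 3.83%, 1.15% and 14.5% without E2+TNFα replicates 1, 2 and 3. EZH2, EZH1, PHF19 and KDM6B were lower in E2 than in TNFα (4 of 10, where 46.7% of all genes passed, 24.9% higher and 21.8% lower). Of these, 3 did not overlap between the groups, as for 47.1% of all genes. This comparison sets 1 agent against the other and does not give the effect of E2 in cells without TNFα. Any 2 of the 3 comparisons without vehicle share the libraries of 1 group, so they are not independent of each other. The log2 fold change in the last is that in the first minus that in the second.

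**Figure D1:**
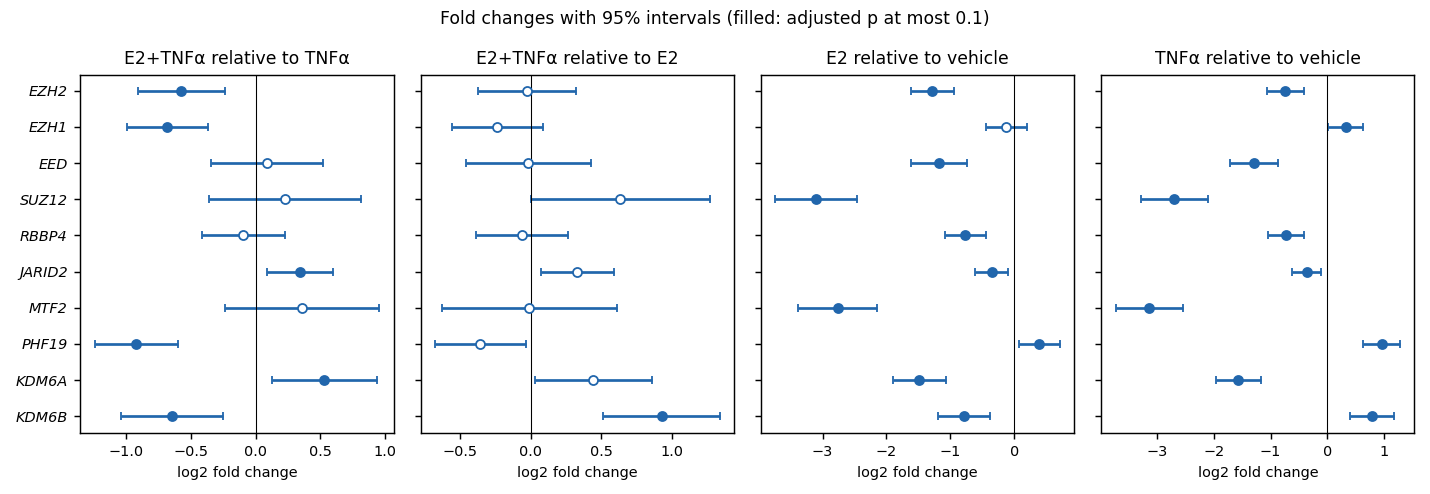
Log2 fold changes of the 10 genes (x axis, with its own scale in each panel) with 95% confidence intervals in 4 comparisons from the fit of all 12 libraries. Filled points have an adjusted p of at most 0.1. In E2+TNFα relative to TNFα the filled points are EZH2, EZH1, PHF19 and KDM6B to the left of 0 and JARID2 and KDM6A to the right, and in E2+TNFα relative to E2 the filled point is KDM6B.

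Relative to vehicle, more of the genes changed and the changes were larger, but so did most of the transcriptome. With E2, 8 of the 10 fell and PHF19 rose, where 81.8% of all genes passed, 41.7% lower and 40.1% higher. With TNFα, 7 fell and EZH1, PHF19 and KDM6B rose, where 81.9% passed, 41.6% lower and 40.3% higher. With E2+TNFα, 7 fell and JARID2, PHF19 and KDM6B did not pass, where 80.6% passed, 41.5% lower and 39.1% higher. The groups did not overlap for 9, 10 and 7 of the 10 genes, against 80.9%, 86.6% and 81.6% of all genes. The size threshold was passed by SUZ12 and MTF2 in all 3 comparisons and by KDM6A with TNFα (30.5%, 26.7% and 25.1% of all genes passed it with E2, TNFα and E2+TNFα). The share of these genes that passed was close to the share of all genes, and the 3 comparisons have the same vehicle libraries in common.

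Of the catalytic subunits, EZH2 (chr7:148807372-148884349 of hg38, minus strand) was highest in vehicle, intermediate in TNFα and lowest in the groups that had received E2. It was at 31.8, 31.6 and 34.3 CPM in the vehicle libraries, 18.2, 20.4 and 20.0 in TNFα, 13.7, 11.3 and 15 in E2, and 15.6, 13.0 and 11.1 in E2+TNFα. The 3 levels did not overlap, and E2 and E2+TNFα could not be separated. EZH2 fell 1.49-fold in E2+TNFα relative to TNFα (log2 fold change -0.57, standard error 0.156, adjusted p = 0.00987 by edgeR) and 1.46-fold in E2 relative to TNFα (adjusted p = 0.0147). Between E2+TNFα and E2 its log2 fold change was -0.03, with a 95% interval of -0.37 to 0.32. Relative to vehicle it fell 2.43-fold with E2, 1.67-fold with TNFα and 2.48-fold with both (adjusted p of 3.28e-06, 0.00043 and 2.56e-06). In bulk RNA, fewer cells that express a gene and less of its RNA per cell cannot be told apart.

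The promoter of EZH2 is shown because this gene is at the centre of the set and the window before its upstream RefSeq start holds an unusual number of CCAAT boxes. The 192 bases upstream of the deposited start (RefSeq on GRCh38.p14, chr7:148884350-148884541, minus strand, written 5′ to 3′) are given with CCAAT and its reverse complement ATTGG in capitals.
EZH2 promoter: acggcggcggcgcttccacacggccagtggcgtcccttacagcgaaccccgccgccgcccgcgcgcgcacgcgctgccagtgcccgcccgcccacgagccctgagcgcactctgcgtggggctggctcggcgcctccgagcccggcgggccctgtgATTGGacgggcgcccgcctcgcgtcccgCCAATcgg
The window of 250 bases before this RefSeq start held 4 matches in either direction, 2 of them in the printed stretch. At least 4 were held by 0.874% of 35116 RefSeq promoters, and 32% held at least 1. The window before the other RefSeq start of EZH2 held 0. Neither the E2F-like TTCCCGC, nor an NFκB consensus, nor the palindromic estrogen response element was found in either window on either strand. In all promoters these 3 motifs were found in 5.52%, 1.73% and 0.0399%. Of the 10 genes, TTCCCGC was found for SUZ12 and PHF19, CCAAT for 7 and the NFκB and estrogen response motifs for none, at any RefSeq start. A match is a string of letters, not a measured site.

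EZH1 (chr17:42700275-42745078, minus strand), the paralog with weaker methyltransferase activity that is expressed in non-dividing cells, differed less from vehicle than EZH2 and was highest in TNFα. It was at 37.5, 39.5 and 37.8 CPM in vehicle, 28.4, 34.2 and 43.2 in E2, 49.0, 42.1 and 52.6 in TNFα, and 28.5, 29.1 and 32.1 in E2+TNFα. The TNFα libraries lay above vehicle and E2+TNFα, while the E2 libraries spread from the level of E2+TNFα to that of TNFα. EZH1 fell 1.60-fold in E2+TNFα relative to TNFα (log2 fold change -0.68, standard error 0.148, adjusted p = 0.00214) and 1.36-fold in E2 relative to TNFα (adjusted p = 0.0288, groups overlapping). Relative to vehicle it fell with E2+TNFα, as EZH2 did (log2 fold change -0.36, adjusted p = 0.0368). E2 alone gave -0.12 (adjusted p = 0.466), which passed as a fall in 3 of 10 other settings (down to -0.48) and without E2 replicate 3 (-0.34). With TNFα it was 0.32 (adjusted p = 0.0558), a rise that did not pass without vehicle replicate 1 or 3 or TNFα replicate 1 or 3. The fall in E2 relative to TNFα did not pass without TNFα replicate 3.

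Within each library, the ratio of EZH2 to EZH1 RPKM put the vehicle libraries apart from all others. The ratio was 1.05, 0.987 and 1.12 in vehicle, 0.593, 0.408 and 0.429 in E2, 0.459, 0.597 and 0.47 in TNFα, and 0.675, 0.552 and 0.426 in E2+TNFα. Transcripts of the paralogs were thus at about equal levels per length in vehicle, and EZH1 was the higher in all 9 other libraries. Among those 9 the groups overlapped, since both paralogs were higher in TNFα. Genes of like exon GC content moved in the same direction relative to vehicle. With E2, the median log2 fold change of 565 such genes was -0.39 for EZH2 and 0.33 for EZH1, where their own values were -1.28 and -0.12. With TNFα the medians were -0.34 and 0.28, and their own values -0.74 and 0.32. The part of GC content in the ratio was not tested.

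**Figure D2:**
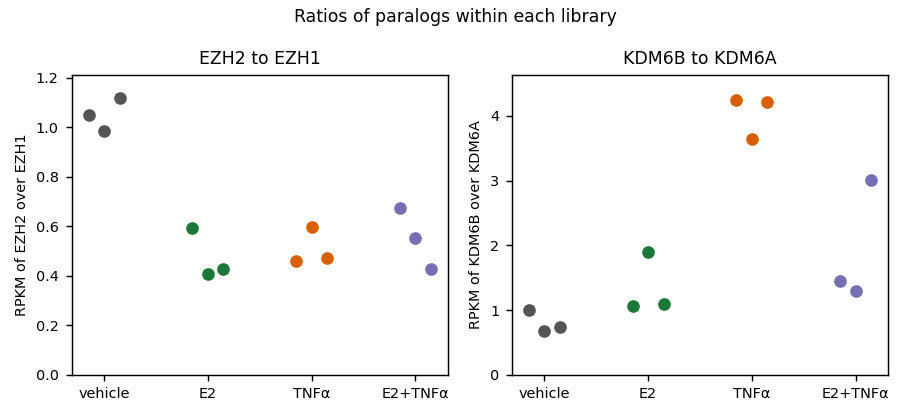
Ratio of RPKM of EZH2 to EZH1 (left) and of KDM6B to KDM6A (right) in each of the 12 libraries, with both y axes from 0 and 1 point per library. On the left, the vehicle libraries lie at 0.987 to 1.12 and the others at 0.408 to 0.675. On the right, the TNFα libraries lie at 3.65 to 4.24 and all others at or below 3.01.

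Of the core subunits, EED (chr11:86244544-86285420, plus strand), which binds H3K27me3 and stimulates the enzyme, was at 20.9, 20.5 and 22.8 CPM in vehicle and at less than 12 CPM in every other library. The values were 10.7, 7.17 and 10.1 in E2, 8.06, 9.45 and 8.78 in TNFα, and 8.83, 11.9 and 7.24 in E2+TNFα. The 3 treated groups overlapped throughout. EED fell relative to vehicle by 1.18 (E2), 1.29 (TNFα) and 1.20 (E2+TNFα) on the log2 scale, with adjusted p of 8.66e-05, 3.05e-05 and 6.3e-05. Its log2 fold change in E2+TNFα relative to TNFα was 0.09, with a 95% interval of -0.34 to 0.52.

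SUZ12 (chr17:31937025-32001045, plus strand), the scaffold of the complex, had the largest difference from vehicle of the core subunits. It was at 35.2, 53 and 46.3 CPM in vehicle, 3.55, 4.78 and 7.40 in E2, 6.15, 7.82 and 6.85 in TNFα, and 8.89, 10.5 and 5.06 in E2+TNFα. The lowest count behind these values was 30 reads, in E2 replicate 2. SUZ12 fell 8.59-fold with E2, 6.47-fold with TNFα and 5.53-fold with both (adjusted p of 2.35e-07, 6.25e-07 and 1.42e-06). Between the treated groups no difference passed. The log2 fold change was 0.22 in E2+TNFα relative to TNFα (95% interval -0.36 to 0.81) and 0.63 relative to E2 (95% interval -0.00 to 1.27, adjusted p = 0.258).

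SUZ12 shares sequence with a copy on the same chromosome, at chr17:30731665-30776402 on the plus strand, which the annotation lists as the transcribed unprocessed pseudogene SUZ12P1. The copy matched the first 11 of the 18 deposited exons, that is 1412 of 4651 exon bases (30.4%), with an identity of 95.1%. Of 1363 windows of 50 bases along the matched part, 453 (33.2%) had no mismatch, and these windows covered 894 bases or 19.2% of the exon bases of SUZ12. Part of exon 9 is printed from both loci to show how alike they are, on the plus strand of hg38 with the 2 bases that differ in capitals.
SUZ12, chr17:31975482-31975591: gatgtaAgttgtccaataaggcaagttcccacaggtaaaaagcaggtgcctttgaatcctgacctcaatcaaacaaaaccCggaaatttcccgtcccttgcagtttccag
copy, chr17:30768834-30768943: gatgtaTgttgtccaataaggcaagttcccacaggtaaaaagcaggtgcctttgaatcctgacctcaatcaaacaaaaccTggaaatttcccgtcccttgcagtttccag
Reads from such stretches can be assigned to either locus or dropped, so the value of SUZ12 is uncertain to that extent. The copy itself was not analysed here. RBBP4 had 2 copies of at least 90% identity over at least 200 bases (chr5:14796181-14798497 and chr3:94075116-94077159, each 93.6% identical over 29.9% and 25.7% of its exon bases), and the 8 other genes had none. SUZ12 fell by 5.53-fold to 8.59-fold relative to vehicle. MTF2, which has no such copy and passed the filter through the vehicle libraries alone, fell by 6.80-fold to 8.78-fold. The part of the copy in the fall of SUZ12 was not tested.

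RBBP4 (chr1:32651148-32686211, plus strand), a histone-binding protein that PRC2 has in common with other chromatin complexes, was at 50.8, 62.6 and 59.5 CPM in vehicle, 32, 31.4 and 38.5 in E2, 32.1, 40.3 and 31.8 in TNFα, and 36.0, 34.8 and 27.1 in E2+TNFα. The treated groups overlapped and lay below vehicle. It fell by 0.76, 0.73 and 0.83 on the log2 scale relative to vehicle (E2, TNFα and E2+TNFα, adjusted p of 0.000296, 0.000373 and 0.00014), a direction that turned when the trends with GC content and gene length were removed together. In E2+TNFα relative to TNFα the log2 fold change was -0.09, with a 95% interval of -0.41 to 0.23.

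Of the accessory subunits, JARID2 (chr6:15245975-15522042, plus strand), a DNA-binding subunit of the PRC2.2 form, was high in vehicle and E2+TNFα and lower in the groups with 1 agent. It was at 59.4, 63.2 and 61.0 CPM in vehicle, 46.7, 43 and 54.1 in E2, 45.1, 44.4 and 53.6 in TNFα, and 62.5, 58.0 and 60.8 in E2+TNFα. The vehicle and E2+TNFα libraries overlapped, and all 6 lay above the 6 others. JARID2 fell 1.28-fold with E2 and 1.29-fold with TNFα relative to vehicle (adjusted p of 0.0151 and 0.0119), and it rose 1.27-fold in E2+TNFα relative to TNFα (log2 fold change 0.34, standard error 0.12, adjusted p = 0.0366). This rise passed in 3 of the 6 fits that left out 1 library of the groups compared, and did not pass without TNFα replicate 1, TNFα replicate 2 or E2+TNFα replicate 1 (lowest log2 fold change 0.27). Relative to E2, the log2 fold change in E2+TNFα was 0.33 (adjusted p = 0.153), without overlap between the groups, which held for 15.3% of all genes.

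MTF2 (chr1:93079235-93139081, plus strand) and PHF19 (chr9:120855651-120894896, minus strand) are Polycomb-like proteins of the PRC2.1 form, and with TNFα relative to vehicle MTF2 fell and PHF19 rose. MTF2 was at 20.0, 26.5 and 24.8 CPM in vehicle, 4.17, 2.07 and 3.88 in E2, 2.73, 2.51 and 2.91 in TNFα, and 3.39, 4.78 and 2.27 in E2+TNFα. Each treated library lay far below vehicle, and the lowest count was 13 reads, in E2 replicate 2. MTF2 fell 6.80-fold with E2, 8.78-fold with TNFα and 6.84-fold with both (adjusted p of 4.75e-07, 1.58e-07 and 4.01e-07). It was also tested when at least 10 counts in every library were required, a filter that its high vehicle level does not decide. Its log2 fold change in E2+TNFα relative to TNFα was 0.36 (95% interval -0.23 to 0.95) and did not pass.

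PHF19 was the most abundant of the 10 genes per length in each group. It was at 124, 111 and 114 CPM in vehicle, 134, 199 and 127 in E2, 230, 218 and 229 in TNFα, and 115, 107 and 135 in E2+TNFα. The TNFα libraries lay above all others, and E2 replicate 2, the library with the lowest total, lay apart from the other E2 libraries. PHF19 rose 1.94-fold with TNFα relative to vehicle (adjusted p = 3.72e-05) and fell 1.89-fold in E2+TNFα relative to TNFα (log2 fold change -0.92, standard error 0.151, adjusted p = 0.000226). The difference between E2+TNFα and vehicle was 0.04 on the log2 scale, with a 95% interval of -0.29 to 0.35. The rise of 0.39 with E2 relative to vehicle (adjusted p = 0.0271) became 0.33 with an adjusted p of 0.105 without vehicle replicate 2, and 0.21, still past the threshold, without E2 replicate 2. Within a library the RPKM of PHF19 exceeded that of MTF2 by 3.67 to 5.41 times in vehicle and by 19.6 to 83.8 times in the 9 others. Genes of like exon GC content also moved apart. With TNFα relative to vehicle, their median log2 fold change was 0.61 for PHF19 (565 genes) and -2.30 for MTF2 (566 genes). The values of PHF19 and MTF2 themselves were 0.95 and -3.135. The part of GC content in this ratio was not tested.

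**Figure D3:**
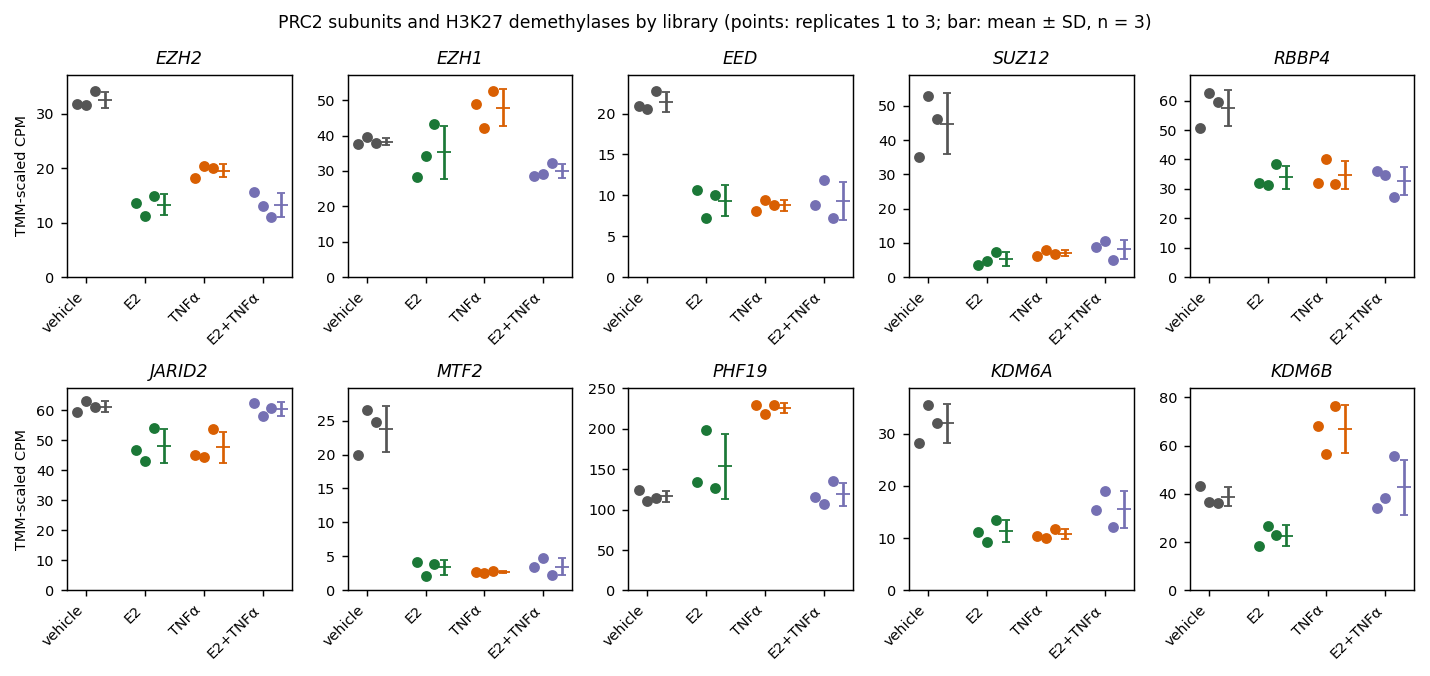
TMM-scaled CPM of each gene in the 12 libraries, 1 panel per gene with its own y axis from 0. Points are replicates 1 to 3 of vehicle, E2, TNFα and E2+TNFα, and bars give the mean ± SD (n = 3). EZH2, EED, SUZ12, RBBP4, MTF2 and KDM6A lie above all treated libraries in vehicle, and PHF19 and KDM6B are highest in TNFα.

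Of the demethylases, KDM6B (chr17:7834200-7854800, plus strand) was the 1 gene of the set that TNFα raised both relative to vehicle and in E2-treated cells. It was at 43.4, 36.7 and 36.4 CPM in vehicle, 18.4, 26.9 and 22.8 in E2, 68.0, 56.6 and 76.5 in TNFα, and 34.3, 38.1 and 55.7 in E2+TNFα. All E2 libraries were below vehicle, all TNFα libraries above it, and the E2+TNFα libraries overlapped vehicle. KDM6B rose 1.72-fold with TNFα relative to vehicle (adjusted p = 0.00119) and 1.90-fold with TNFα in E2-treated cells (log2 fold change 0.93, standard error 0.194, adjusted p = 0.0243). The rise relative to vehicle, 0.785 on the log2 scale, was no larger than the median of 565 genes of like exon GC content, 0.814. In E2-treated cells the median of those genes was -0.05. KDM6B fell 1.73-fold with E2 relative to vehicle (adjusted p = 0.00158) and 1.57-fold with E2 in TNFα-treated cells (log2 fold change -0.65, standard error 0.185, adjusted p = 0.0129). E2 relative to TNFα gave its largest difference, 2.98-fold lower (log2 fold change -1.57, standard error 0.195, adjusted p = 1.33e-05), the only one among the 10 genes to pass the size threshold in that comparison, as 5.97% of all genes did. The rise with TNFα in E2-treated cells was 0.79 with an adjusted p of 0.116 when E2 replicate 1 was left out, and it passed in the 5 other fits without 1 library. The interaction of E2 and TNFα was 0.14 on the log2 scale (95% interval -0.42 to 0.71), and did not pass. Over 9 other settings it was between 0.09 and 1.46, and it passed in 3 of them, with trends with GC content and length removed (0.47), with the replicate block added to that (0.47) and with library size only (0.46).

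The promoter of KDM6B is shown since this gene was higher with TNFα in the presence and absence of E2. The 233 bases upstream of the deposited start (RefSeq on GRCh38.p14, chr17:7833967-7834199, plus strand) are given with the GC box GGGCGG and its reverse complement CCGCCC in capitals.
KDM6B promoter: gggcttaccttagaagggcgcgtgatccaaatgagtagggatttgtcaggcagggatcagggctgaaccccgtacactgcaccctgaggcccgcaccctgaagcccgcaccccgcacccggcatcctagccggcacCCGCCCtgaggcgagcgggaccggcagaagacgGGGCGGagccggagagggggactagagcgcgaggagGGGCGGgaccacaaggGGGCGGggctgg
It held 4 GC boxes, a number reached in 7.63% of all promoters, where 42.6% held at least 1, and 8 of the 10 genes had a match. The number was not particular to KDM6B, as a RefSeq start of EZH2 and of JARID2 also had 4 and one of PHF19 had 6. The other RefSeq start of KDM6B had 0. The NFκB consensus searched was not in the 250 bases before either RefSeq start. That says nothing of sites elsewhere at the gene.

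KDM6A (chrX:44873175-45112779, plus strand), which acts in the KMT2C and KMT2D methyltransferase complexes, moved the other way from KDM6B in TNFα-treated cells. It was at 28.2, 35.5 and 32.1 CPM in vehicle, 11.2, 9.24 and 13.5 in E2, 10.5, 10.1 and 11.8 in TNFα, and 15.4, 19.1 and 12.1 in E2+TNFα. The E2+TNFα libraries lay above the TNFα libraries and overlapped the E2 libraries. KDM6A rose 1.44-fold in E2+TNFα relative to TNFα (log2 fold change 0.53, standard error 0.189, adjusted p = 0.0395), and this passed in 3 of the 6 fits without 1 library but not without TNFα replicate 1, TNFα replicate 2 or E2+TNFα replicate 2 (lowest log2 fold change 0.35). Relative to vehicle it fell by 1.49 with E2, 1.57 with TNFα and 1.04 with both on the log2 scale (adjusted p of 5.2e-06, 2.62e-06 and 0.00012). The ratio of KDM6B to KDM6A RPKM was 1, 0.673 and 0.738 in vehicle, 1.07, 1.9 and 1.1 in E2, 4.24, 3.65 and 4.22 in TNFα, and 1.45, 1.3 and 3.01 in E2+TNFα. It was highest in the 3 TNFα libraries.

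Per exon length, PHF19 led in each group, at an RPKM of 19.8 ± 1.13 in vehicle, 26.1 ± 6.71 in E2, 38.4 ± 1.15 in TNFα, with 20.3 ± 2.45 in E2+TNFα (SD, n = 3). In vehicle SUZ12 (9.64 ± 1.93), JARID2 (8.97 ± 0.280), EZH2 (8.60 ± 0.402) and EZH1 (8.20 ± 0.229) followed and could not be ranked by their spread, RBBP4 came next, and KDM6A, EED, MTF2 and KDM6B, from 5.09 to 4.03, could not be ranked either. In the 3 treated groups EZH1 and JARID2 came after PHF19, with RPKM of 6.39 to 10.3, though in TNFα KDM6B (6.95) lay within the spread of JARID2 (6.99), and SUZ12 and MTF2 were last, with 1.13 to 1.75 and 0.529 to 0.678. In E2+TNFα, KDM6B, RBBP4, EZH2, KDM6A, EED and SUZ12 formed a run in which no neighbours differed beyond their spread. Counts of a subunit's RNA say nothing of the amount of protein or of assembled complex.

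Fold changes followed GC content most strongly in the comparisons with vehicle. Across all genes tested, the log2 fold change relative to vehicle had a Spearman correlation with exon GC content of 0.655 (E2), 0.706 (TNFα) and 0.665 (E2+TNFα), as against -0.21 for E2+TNFα relative to TNFα, -0.331 relative to E2 and -0.01 for E2 relative to TNFα (genes are not independent replicates). The correlation with exon length was -0.376, -0.314 and -0.32 relative to vehicle, 0.05 for E2+TNFα relative to TNFα and -0.196 for E2 relative to TNFα. It was largest, 0.459, for E2+TNFα relative to E2, where KDM6B, the longest of the 10 genes (9644 exon bases), was the only one to pass. With the trends removed KDM6B still rose there, by 0.79 on the log2 scale. MTF2 and SUZ12, with exon GC contents of 36.3% and 38.4%, rank among the lowest 1.75% and 6.21% of genes, and PHF19 and KDM6B have 57.8% and 62.4%. The median log2 fold change of 566 genes of like GC content was -2.30 for MTF2 and of 565 such genes -2.05 for SUZ12 with E2 relative to vehicle, where their own values were -2.77 and -3.10. The corresponding values for EZH2, with 46.9% GC, were -0.39 for genes of like content and -1.28 for EZH2 itself.

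After removal of the trends of every library with GC content and gene length, the vehicle comparisons of several of the genes shrank or turned. With E2 relative to vehicle, EZH2 still fell by 1.03, EED by 0.54, SUZ12 by 0.99 and KDM6B by 1.03 on the log2 scale, and MTF2 by 0.32. RBBP4 turned to a rise of 1.06, and PHF19 (-0.08) and KDM6A (-0.06) no longer passed. With TNFα relative to vehicle, PHF19 (0.47) and KDM6B (0.32) still rose and EZH2 still fell (by 0.45), while RBBP4 turned to a rise of 0.87. With an unwanted factor estimated from 20 housekeeping genes, which took values of 0.447 to 0.484 in the vehicle libraries and -0.414 to 0.0562 in the others, the genes that passed relative to vehicle were KDM6B with E2 (-2.17) and PHF19 with E2+TNFα (-0.99), and no gene passed with TNFα by edgeR, at an unadjusted threshold of 0.05 either. The factor nearly coincided with vehicle against the rest, and the standard errors were larger with it. EZH2 then had log2 fold changes of -0.75 (standard error 0.549) with E2 and -0.91 (standard error 0.434) with E2+TNFα, JARID2 had -0.32 (standard error 0.308) with TNFα, and SUZ12 had -1.11 (standard error 0.904) with E2. Without the factor these values were -1.28 and -1.31 for EZH2, -0.36 for JARID2 and -3.10 for SUZ12, so each estimate was smaller with it. A call lost for EZH2, JARID2 or SUZ12 in this setting therefore does not show that the difference went away, nor that it kept its size. For other genes the estimate with E2 was itself near 0 or of the other sign. It was -0.09 for MTF2 (standard error 0.761), 0.04 for KDM6A (0.547), 0.06 for RBBP4 (0.494), 0.68 for EED (0.524) and -0.99 for PHF19 (0.372). With TNFα the estimate was -1.18 for MTF2 (standard error 0.565) and -0.36 for EZH2 (0.405). The parts of the vehicle condition and of base composition in these differences were not tested apart from each other.

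The falls of EZH2, EZH1, PHF19 and KDM6B in E2+TNFα relative to TNFα did not depend on the vehicle libraries. They passed in all 11 other settings, a fit without the vehicle libraries among them, and in all 6 fits without 1 library. Over the 11 settings the log2 fold change was between -0.62 and -0.53 for EZH2, between -0.71 and -0.64 for EZH1, between -0.98 and -0.85 for PHF19 and between -0.71 and -0.57 for KDM6B. JARID2 (0.31 to 0.39) and KDM6A (0.47 to 0.58) also passed in all 11. In E2 relative to TNFα, EZH2 passed in 10 of 11 and had -0.39 with the housekeeping factor (adjusted p = 0.145).

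**Figure D4:**
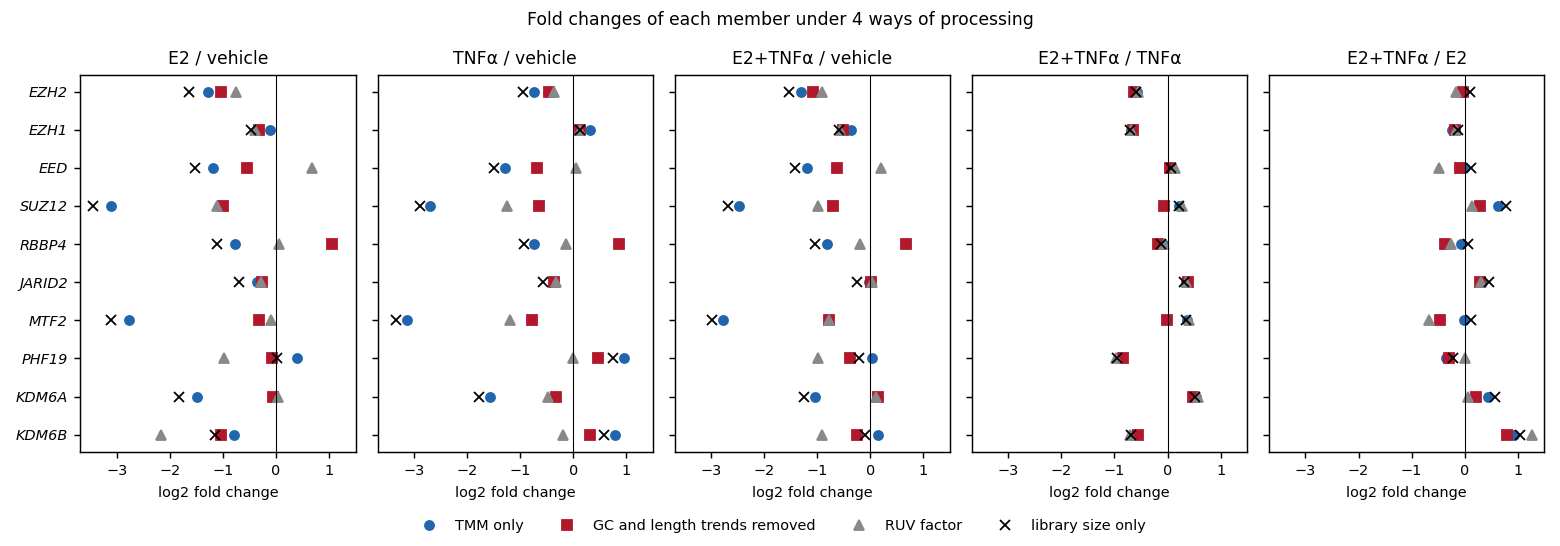
Log2 fold change of each gene (x axis) in 5 comparisons under 4 ways of processing, namely TMM only (circles), GC and length trends removed (squares), a factor from housekeeping genes (triangles) and library size only (crosses). In the 3 comparisons with vehicle the symbols of a gene spread widely, as for MTF2 with E2, from -3.11 to -0.09. In E2+TNFα relative to TNFα the symbols of each gene that passed lie close together.

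The effect of E2 was also compared between cells with and without TNFα. The interaction, that is the E2 effect in TNFα-treated cells minus that in cells without TNFα, passed for 9 of the 10 genes, where 76.6% of all genes passed (39% higher, 37.6% lower), and for 3 with the size threshold, where 31.8% did. It was positive for EZH2, EED, SUZ12, JARID2, MTF2, RBBP4 and KDM6A and negative for EZH1 and PHF19. SUZ12 and MTF2 had the largest values, 3.33 (standard error 0.404) and 3.13 (standard error 0.398), which fell to 0.93 and 0.32 with the trends removed. For JARID2 the interaction was 0.69, and 0.65 with the trends removed. The vehicle libraries enter this value, whose Spearman correlation with GC content across all genes was -0.689.

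Of the PRC2 subunits outside the set, EPOP, an accessory subunit that links PRC2.1 to elongin BC, rose in E2+TNFα relative to TNFα (log2 fold change 1.03, standard error 0.161, adjusted p = 0.000135). Its level was 22.7 ± 1.24 CPM in vehicle, 63.2 ± 15.9 in E2, 40.5 ± 4.11 in TNFα, with 82.7 ± 10.4 in E2+TNFα (SD, n = 3), and it rose relative to vehicle by 1.47 with E2, 0.83 with TNFα and 1.86 with both. RBBP7, AEBP2, PHF1 and LCOR did not pass in E2+TNFα relative to TNFα, with log2 fold changes from -0.19 to 0.37, and fell relative to vehicle in all 3 comparisons, by 0.54 (PHF1) to 3.19 (LCOR) with E2. None of the 5 passed in E2+TNFα relative to E2 by edgeR (2 at an unadjusted threshold of 0.05 and 1 after adjustment by DESeq2). AEBP2 and LCOR passed the filter through the vehicle libraries alone, LCORL did not pass it, and EZHIP was not analysed here. The median log2 fold change of the 5 in E2+TNFα relative to TNFα was 0.09, that of the 10 genes -0.00 and that of all genes 0.04.

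PRC1, the complex that reads H3K27me3 and ubiquitinates H2A, had 21 subunits tested. In E2+TNFα relative to TNFα, where 24.4% of all genes were higher and 21% lower, 1 was higher, PCGF3 (0.46), and 6 were lower, led by SCMH1 (-0.80, from 72.0 to 41.3 CPM) and PHC2 (-0.73, from 587 to 353 CPM), with a list median of -0.18. In E2+TNFα relative to E2, BCOR (0.71) was higher and CBX2 (-0.65) lower. BCOR, a subunit of the PRC1.1 form, had group means of 59.7 CPM in vehicle, 33.7 in E2, 80.5 in TNFα, with 55 in E2+TNFα, highest in TNFα and lowest in E2 as for KDM6B.

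The complex in which KDM6A acts had 9 subunits tested, of which 4 passed in E2+TNFα relative to TNFα, where 45.3% of all genes did. DPY30 (0.58) and KMT2C (0.55) were higher and WDR5 (-0.42) and ASH2L (-0.40) lower in E2+TNFα relative to TNFα, with a median of -0.12, and PAGR1 (-0.51) was lower relative to E2. A further list held 10 other chromatin genes with a link to H3K27 (EP300, CREBBP, NSD1, NSD2, NSD3, ASH1L, SETD2, BAP1, ASXL1 and ASXL2). Of these, SETD2, an H3K36 methyltransferase, was higher (0.71) and NSD2, another H3K36 methyltransferase, lower (-0.48, from 338 to 242 CPM). These 2 of 10 compare with 45.3% of all genes, and the median was 0.00. Relative to E2 none of the 10 passed by edgeR (2 at an unadjusted threshold of 0.05 and 1 by DESeq2).

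Of 21 proliferation genes, given because EZH2 is linked to cell division, 2 were higher (UHRF1 at 0.61 and MCM4 at 0.29) and 5 lower in E2+TNFα relative to TNFα, led by AURKB (-0.92, from 103 to 54.8 CPM) and MCM2 (-0.82), with a median of -0.07. These 7 of 21 compare with 45.3% of all genes, 24.4% higher and 21% lower. None of the 21 passed relative to E2 by edgeR (4 at an unadjusted threshold of 0.05 and 1 by DESeq2), with values from -0.35 to 0.44. The part of cell division in the values of EZH2 was not tested.

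Over the 9 libraries without vehicle, the genes whose log2 CPM was most like that of EZH2 were PPT1 (Pearson's r = 0.971), SINHCAF (0.97), OCLN (0.968), USP28 (0.967) and ZC3H8 (0.963). Like EZH2, these were higher in TNFα than in E2 and E2+TNFα, for example SINHCAF at 64.2, 24.6 and 22.5 CPM. With the vehicle libraries the correlation stayed at 0.987 for USP28 and 0.983 for OCLN and was 0.0785 for PPT1, which was not highest in vehicle. Nearest to KDM6B were LAMB3 (0.992), NFKB2 (0.984), GADD45A (0.984), LATS2 (0.981) and NINJ1 (0.979). With the vehicle libraries these correlations were 0.953, 0.984, 0.973, 0.483 and 0.615. LATS2 was at 38.3 CPM in vehicle and 24.9 in TNFα, unlike KDM6B. NFKB2, which encodes an NFκB subunit, was at 181 CPM in vehicle, 125 in E2, 266 in TNFα, with 178 in E2+TNFα. Among the 10 genes themselves, the closest pairs over the 9 libraries were EED and MTF2 (0.917), JARID2 and KDM6A (0.794) and EZH1 and PHF19 (0.778). Libraries of a group share their treatment, so these correlations describe 3 groups of 3 libraries.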

How the data were processed

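The authors aligned stranded paired-end mRNA reads to hg38 (TopHat2 2.1.0 and featureCounts are named in the submitters' processing notes) and deposited whole-number read counts per gene, without normalization or batch correction, with the exon length of each gene. Whether counting used strand is not given in the sources used here. Of 12567 rows, 46 repeated another exactly and 70 gave a second symbol to a locus with the same counts, and these were dropped. After TMM scaling, edgeR 4.0.16 in R 4.3.3 fitted a quasi-likelihood model, with 4 group means in 1 fit of 12 libraries and Benjamini-Hochberg adjustment over 11303 genes. "Rose" and "fell" refer to an adjusted p of at most 0.1. The size threshold (log2 fold change of 1.5, p under 0.05) and the RPKM filter follow the study's methods, which also name RUVseq without its batches or genes, so a housekeeping factor was an alternative.

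Exon GC content and promoter sequences came from hg38 and RefSeq. Copies were sought with minimap2 2.31. Trends with GC content and length were removed by loess (span 0.3). Squared differences between replicate counts were 10.2 to 71.3 times those of counting error alone (chi-square per degree of freedom). The 10 genes and all gene lists were chosen with earlier results of these data known. Genes outside the set are named by a fixed rule (the largest 2 changes each way per list, every other PRC2 subunit measured, the 5 nearest patterns to EZH2 and KDM6B), and the per-library values of SUZ12P1 were not analysed here. The fits were tested on simulated data. The alternatives are given in the closing section, and the fit without vehicle was added after seeing the data.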

Additional observations from a re-analysis of the deposited data

Results flagged for a closer look

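For 9 of the 10 genes the effect of E2 differed between cells with and without TNFα, by the interaction term of the edgeR fit (adjusted p of at most 0.1, as for 76.6% of all genes). The interaction was 3.33 for SUZ12, 3.13 for MTF2, 2.02 for KDM6A, 1.27 for EED, 0.71 for EZH2, 0.69 for JARID2 and 0.67 for RBBP4 on the log2 scale. It was -0.56 for EZH1 and -1.31 for PHF19. With the trends with GC content and length removed, the values were 0.93 for SUZ12, 0.32 for MTF2 (no longer past the threshold), 0.54 for KDM6A, 0.60 for EED, 0.41 for EZH2, 0.65 for JARID2, -1.25 for RBBP4, -0.32 for EZH1 and -0.77 for PHF19. KDM6B, at 0.14, did not pass before and passed with the trends removed, at 0.47. Each value rests on the 3 vehicle libraries, which stand apart from the 9 others, and the part of that in the interaction was not tested.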

How the results depend on the processing

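Over 11 other settings, 314 of 330 values of the 10 genes in the comparisons without vehicle kept their side of the threshold and did not reverse. Of the others, 14 passed newly, 1 no longer passed and 1 reversed (RBBP4 in E2 relative to TNFα, 0.19 with trends removed). In the comparisons with vehicle, 322 of 390 kept their side and did not reverse, 32 no longer passed, 7 passed newly and 29 reversed, as given here. A reversed value changed sign and passed before or under the other setting. Among the values that kept their side, 22 without vehicle and 9 with vehicle changed sign but passed in neither. When 1 library was left out, 294 of 300 values with vehicle and 164 of 180 without it kept their side, and none reversed. Of these, 6 with vehicle and 22 without it changed sign but passed in neither. With the housekeeping factor, 1 of the 10 passed for E2 relative to vehicle (9 before), 0 for TNFα (10 before, 0 also at an unadjusted threshold of 0.05), 1 for E2+TNFα (7 before) and 0 for the interaction (9 before, 1 at the unadjusted threshold), with larger standard errors. Its reversed values were EED 0.68, PHF19 -0.99, RBBP4 0.064 and KDM6A 0.035 with E2, EED 0.055, PHF19 -0.0090 and KDM6B -0.20 with TNFα, EED 0.20, PHF19 -0.99 and KDM6A 0.10 with both, and EED -0.54, PHF19 0.0062 and RBBP4 -0.12 for the interaction. With trends removed, the reversed values were PHF19 -0.077 and RBBP4 1.06 with E2, RBBP4 0.87 with TNFα, PHF19 -0.38, RBBP4 0.68, KDM6A 0.15 and KDM6B -0.24 with both, and RBBP4 -1.25 for the interaction. With the replicate block added they were -0.081 and 1.06, 0.86, -0.38, 0.68, 0.15 and -0.25, and -1.25. The cause was not tested. In E2+TNFα relative to E2, where 1 of the 10 passed, the count was 2 with library size only, 4 with trends removed, 3 with trends removed and the block, 2 with DESeq2, and 0 to 4 when 1 library was left out, with 0 without E2 replicate 1 (4 at an unadjusted threshold of 0.05) and 4 without E2 replicate 3 or E2+TNFα replicate 3. In E2 relative to TNFα it was 7 with trends removed (4 before). With library size only, the median of all genes moved to -0.38 for E2, -0.19 for TNFα and -0.26 for E2+TNFα relative to vehicle.

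Same-numbered replicates did not deviate together (correlations of -0.468 to 0.451), so the numbers are not taken to pair the libraries. With the replicate block alone no call of the 10 genes changed in any comparison, and the number of all genes that passed in E2+TNFα relative to E2 went from 678 to 240. That number was 86 with the compared groups only, 200 in the fit without vehicle, 1040 with the housekeeping factor, 1360 with trends removed, 1347 with DESeq2 and 130 to 1658 when 1 library was left out. Adding the counts of copies to SUZ12 was not run, because no such entry was among the entries used. Values of MTF2 and SUZ12 rest on as few as 13 and 30 reads in a library, which limits the precision of differences between the treated groups.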
